A study of Mus musculus with 62 samples.

Results

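The cell cycle and DNA replication genes described here are 40 genes chosen by name: cyclins and cyclin-dependent kinases (CDKs), the replicative helicase and its sliding clamp, enzymes of deoxynucleotide supply, E2F and FOXM1 transcription factors, kinetochore and mitotic proteins, and 2 CDK inhibitors. All 40 were found by symbol among the 47643 symbols of the expression table. Values are TPM, transcript abundances scaled for transcript length and to the same total in every library, so levels may be compared between genes. A gene was tested when it reached 1 TPM in at least 5 of the 62 libraries, which held for 12160 symbols and for 35 of the 40. Top2a, Aurkb, Bub1, Bub1b and Foxm1 did not reach that level and are given by their values alone.

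The study followed the liver of female mice, 2 months of age, over the course of cancer cachexia, the wasting of body mass that some tumours bring about. CAC mice had received a melanoma line that causes cachexia, NCAC mice a melanoma line that does not, and Con mice a mock injection. Livers were taken 2, 4, 6 and 8 weeks later, 5 libraries per arm and week and 7 for CAC at 8 weeks, which the protocol calls biological replicates without naming the animals. The sample labels give the strain as C57BL/6J, whereas the design text names NCI Ath/nude mice, and the labels do not settle which applies. Neither melanoma line is named further, and each stands for its arm alone.

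In a dividing cell, D-type cyclins with CDK4 and CDK6, then cyclin E with CDK2, phosphorylate the retinoblastoma proteins and so free E2F factors to switch on the genes for DNA synthesis. A hexamer of MCM proteins is loaded on replication origins and unwinds the DNA, and later a programme of cyclin A, cyclin B, CDK1, FOXM1 and mitotic genes brings the cell through mitosis. Hepatocytes of the adult liver rarely divide, and cyclin D1 is the member of this set they are known to express at a high level and to raise when the liver regenerates.

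Promoters of such genes carry known control letters, and those with matches near the start are shown because their genes are the ones compared below. Promoters of 300 bases from RefSeq (GRCm38.p6, 250 before the start and 50 after) were matched by symbol for 32 of the 40 members, 35 promoters in all. They were searched on both strands for the E2F site TTCCCGC, its variant with the letters TTGGCGC, the cell cycle homology region with the letters TTTGAA (CHR) and the NF-Y box with the letters CCAAT. An E2F site of either kind was present in 12 of the 35 promoters, or 34.3%, against 6.81% of all 32851 promoters of that length. CHR letters were in 13 (37.1%, against 17.9%), CCAAT in 27 (77.1%, against 37.4%) and both together in 13 (37.1%, against 6.95%). The 120 bases before the start follow, 5′ to 3′ on the gene's strand, for the 7 members with an E2F site, or with CHR and CCAAT, in a window free of annotated exons. Capitals mark the searched letters or their reverse complements, and in E2f8 a reversed CCAAT box overlaps an E2F site.
Mcm6, chr1:128359706-128359825, minus strand: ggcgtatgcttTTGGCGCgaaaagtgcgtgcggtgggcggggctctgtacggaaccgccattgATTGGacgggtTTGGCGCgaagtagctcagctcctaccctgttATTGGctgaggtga
Mcm7, chr5:138171267-138171386, minus strand: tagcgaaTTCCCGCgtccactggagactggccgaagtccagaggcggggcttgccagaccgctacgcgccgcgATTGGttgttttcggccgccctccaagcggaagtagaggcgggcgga
Rrm1, chr7:102441575-102441694, plus strand: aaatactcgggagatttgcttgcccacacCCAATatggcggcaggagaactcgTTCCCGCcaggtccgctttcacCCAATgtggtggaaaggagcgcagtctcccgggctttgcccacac
Cdk2, chr10:128705052-128705171, minus strand: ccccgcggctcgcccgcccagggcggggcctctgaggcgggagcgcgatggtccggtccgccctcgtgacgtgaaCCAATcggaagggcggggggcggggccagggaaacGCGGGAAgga
E2f8, chr7:48881597-48881716, minus strand: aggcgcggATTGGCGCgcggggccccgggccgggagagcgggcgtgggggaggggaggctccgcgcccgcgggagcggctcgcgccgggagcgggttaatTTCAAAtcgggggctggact
Mki67, chr7:135716380-135716499, minus strand: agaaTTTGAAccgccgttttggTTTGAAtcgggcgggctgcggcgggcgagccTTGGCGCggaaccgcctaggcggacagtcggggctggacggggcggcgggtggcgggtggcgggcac
Top2a, chr11:99024190-99024309, minus strand: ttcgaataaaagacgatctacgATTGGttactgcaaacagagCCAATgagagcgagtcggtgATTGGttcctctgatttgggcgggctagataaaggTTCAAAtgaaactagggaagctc
Mcm6 held 2 E2F sites and 2 CCAAT boxes in this stretch, Mki67 1 E2F site and 2 CHR matches, and Top2a 1 CHR match with 3 CCAAT boxes. A match of letters is a description of the window and not evidence that a factor binds there.

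Some libraries stood apart. In 12 of the 62 libraries transcripts of neighbouring tissue were present, pancreas (at least 100 TPM of Ctrb1, 9 libraries) or muscle (at least 10 TPM of Acta1, 5 libraries); at 8 weeks these were Con replicates 2 and 4 and NCAC replicates 1 and 5, and no CAC library. CAC replicate 3 at 8 weeks was the highest of all 62 libraries for 16 of the 40 members, and the highest of its 7 for 36. Its 17 erythroid marker genes summed to 16110 TPM against 73.4 to 2442 in the other CAC libraries at 8 weeks and 1396 to 4743 in Con, and 4 globins made up 16010 of this. The 13 other erythroid genes summed to 101.7 TPM, against 21.3 to 40.4 in the other CAC libraries and 31.5 to 58.4 in Con. Of these 13, 7 were above every other CAC and every Con library of that week, while Epor and Car1 were below all of Con and Klf1 and Tfrc within its range. Summed hepatocyte markers overlapped between both groups at 8 weeks, 126200 to 155700 TPM in CAC and 126600 to 152400 in Con. The counts of members are therefore given with and without these libraries, and for a number of members the value where the call changed. Since replicate 3 was singled out for its high values of these same genes, p-values without it are conditioned on that choice and describe the other 6 libraries. In whole liver RNA, fewer cells of a type and less RNA per cell cannot be told apart.

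By 8 weeks members of every step from cyclin D to the replication fork were lower in CAC liver, and no tested member was higher. Of the 35 tested, 21 were lower and 0 higher than in Con (limma, Benjamini-Hochberg adjusted p under 0.05), against 35.3% of all tested genes called lower at that week. The median difference on the log2(TPM + 1) scale was -0.49 over the tested members and -0.21 over all tested genes. With a pseudocount of 0.1 the medians were -1.02 and -0.25, and 22 members were lower, against 35.4% of all genes. The 21 comprised 4 of 5 D-type cyclins and their kinases, 1 of 3 in the cyclin E and CDK2 group, 7 of 7 MCM and PCNA genes, 3 of 3 of deoxynucleotide supply, 2 of 2 tested E2F factors, 3 of 5 tested chromosome and kinetochore genes and 1 of 4 tested mitotic regulators. None of the 4 genes for cyclins A and B and CDK1, and neither CDK inhibitor, passed. Without CAC replicate 3 the count was 30 of 35 (39.9% of all genes), without the 12 libraries with other tissue 17 (34.8%), and without both 24 (40.9%).

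**Figure D1:**
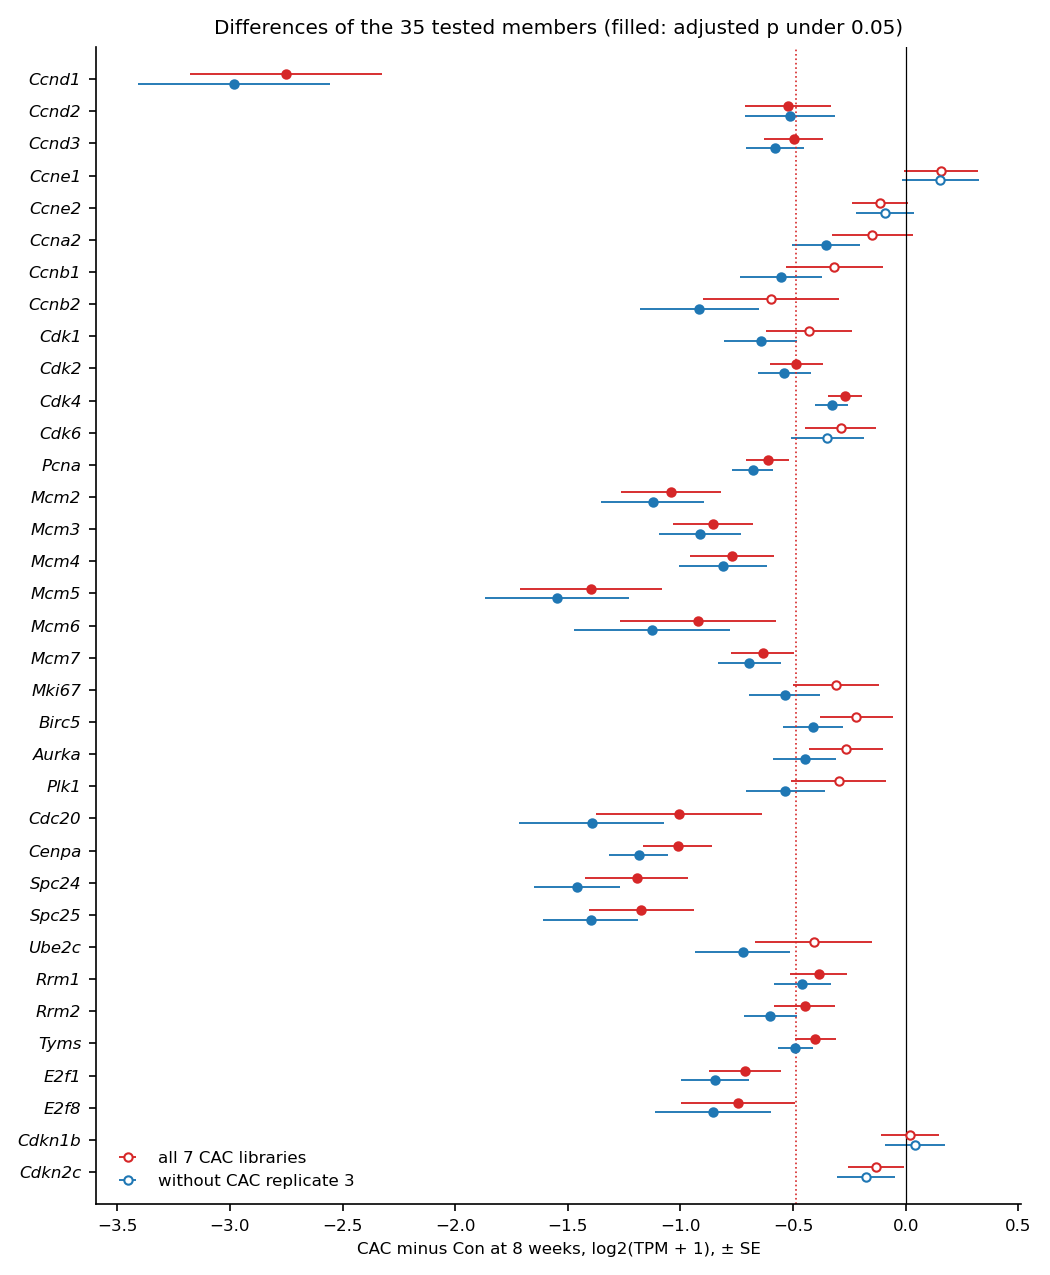
Difference between CAC and Con at 8 weeks on the log2(TPM + 1) scale, with its standard error, for the 35 tested members, from all 7 CAC libraries (red) and without CAC replicate 3 (blue); filled points have an adjusted p under 0.05 and the dotted line is the members' median of -0.49. Ccnd1 lies farthest to the left at -2.75, and Mki67, Cdk1 and 7 more are filled in blue alone.

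Cyclin D1, which carries growth signals to CDK4 and CDK6, had the largest difference of the tested members on the log2(TPM + 1) scale, which understates low genes. Ccnd1 (chromosome 7, 144929931 to 144939925, mm10) was at 71.9, 38.1, 88.3, 75.4 and 72.8 TPM in the 5 Con livers of 8 weeks. In the 7 CAC livers it ran from 1.38 through a median of 13.3 to 25.1 TPM, so every CAC value lay below every Con value, and replicates 1 and 6, at 2.21 and 1.38 TPM, were the lowest of all 62 libraries, followed by CAC replicate 2 at 4 weeks (3.93 TPM). The difference was -2.75 ± 0.43 (SE, limma adjusted p = 1.38e-06), -2.98 without CAC replicate 3 and -2.96 without the libraries of other tissue. Con itself was at 33.8 ± 10.7 TPM at 2 weeks and 69.3 ± 18.7 at 8 (SD, n = 5 each), a difference of 1.03 that did not pass (limma adjusted p = 0.41), and the Con mean at 8 weeks was the highest of its 4 weeks. Against NCAC, at 16.5 to 69.7 TPM, the difference at 8 weeks was -2.06 ± 0.43 (limma adjusted p = 0.00012), with 5 of the 7 CAC values below the lowest NCAC value.

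The other D-type genes moved less. Ccnd3 fell by 0.50 (limma adjusted p = 0.0019), from 9.39 ± 1.07 TPM in Con to 6.58 ± 2.04 in CAC, and Ccnd2 by 0.52 (limma adjusted p = 0.024), from 3.25 ± 1.03 to 1.97 ± 0.80. Cdk4, the kinase partner present at the highest level, fell by 0.27 (limma adjusted p = 0.0038), from 18.4 ± 1.38 to 15.2 ± 2.53 TPM. After median-of-ratios rescaling Ccnd2 (-0.35), Ccnd3 (-0.28) and Cdk4 (-0.03) no longer passed, and Cdk4 did not pass without the libraries of other tissue (-0.20, limma adjusted p = 0.071). Ccnd2 also lost its call on leaving out any 1 of Con replicates 4 and 5 and CAC replicates 1 and 4. Cdk6 was at -0.29 (limma adjusted p = 0.14) against Con. Without the libraries of other tissue and CAC replicate 3 it was at -0.48 (limma adjusted p = 0.036). It passed against NCAC (-0.58, limma adjusted p = 0.0026), where all 5 genes of the group were lower.

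Cyclin E binds CDK2 at the start of DNA synthesis, and here the kinase passed the test and its cyclins did not. Cdk2 was at 7.45, 6.20, 7.81, 8.42 and 7.88 TPM in Con and from 4.30 through 4.98 to 6.61 in CAC, where replicate 3 alone reached into the Con range. It fell by 0.49 ± 0.12 (limma adjusted p = 0.00088) and by 0.27 after median-of-ratios rescaling (limma adjusted p = 0.030). Ccne1, at 1.34 ± 0.43 TPM in Con and 1.61 ± 0.46 in CAC, was at 0.16 (limma adjusted p = 0.46), and Ccne2, near 1 TPM, at -0.11 (limma adjusted p = 0.48). Cdk2 shares bases with Pmel on the opposite strand, and whether the counting used strand is not given in the sources used here. Of 10 melanocyte lineage genes 2 were at 0 in all 62 libraries, and the summed level at 8 weeks was 12.8 to 25.1 TPM in CAC and 8.63 to 16.6 in Con; its part in the result was not tested.

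All 6 genes of the MCM helicase and Pcna, the clamp that holds polymerases on DNA, were lower in CAC at 8 weeks. Pcna was at 19.2, 20.8, 24.3, 24.4 and 21.4 TPM in Con and from 10.7 through 13.4 to 18.8 in CAC, without overlap, and fell by 0.61 ± 0.09 (limma adjusted p = 1.4e-06). Mcm2 was at 2.52, 3.63, 5.26, 4.18 and 2.13 TPM in Con and from 0.626 through 1.13 to 2.01 in CAC, also without overlap, and fell by 1.04 ± 0.22 (limma adjusted p = 0.00021). Mcm3 did the same, with 3.05, 4.74, 5.12, 4.43 and 3.16 TPM in Con and 1.10 through 1.84 to 2.58 in CAC (-0.85 ± 0.18, limma adjusted p = 0.00014). Mcm4 completed the members without overlap, together with Ccnd1 5 of 35 against 6.09% of all tested genes. Without CAC replicate 3 the groups did not overlap for 21 of 35, against 18.7%.

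Mcm5 had the largest change of the helicase genes. It was at 2.06, 3.94, 5.58, 4.46 and 2.28 TPM in Con and from 0.313 through 0.549 to 2.21 in CAC, the highest being replicate 3, while the other 6 stayed at or under 0.915 TPM. Its difference was -1.40 ± 0.32 (limma adjusted p = 0.00041). Mcm7, which hosts 3 microRNAs in its introns, was at 4.87, 7.09, 6.19, 6.41 and 4.14 TPM in Con and from 2.70 through 3.06 to 4.45 in CAC (-0.64 ± 0.14, limma adjusted p = 0.00024). Mcm6 ranged from 1.45 to 5.02 TPM in Con and 0.197 to 4.08 in CAC, and its difference of -0.92 (limma adjusted p = 0.028) did not pass after median-of-ratios rescaling (-0.78, limma adjusted p = 0.084) or without the libraries of other tissue (-0.87, limma adjusted p = 0.10). Mcm6 also lost its call on leaving out any 1 of Con replicates 1, 2, 3 and 4 and CAC replicates 1 and 6. The summed level of the 7 genes was 46.2 ± 8.04 TPM in Con and 24.5 ± 5.59 in CAC at 8 weeks. At 2, 4 and 6 weeks its mean was 35.6, 47.5 and 38.3 TPM in Con and 32.6, 30.7 and 29.5 in CAC.

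**Figure D2:**
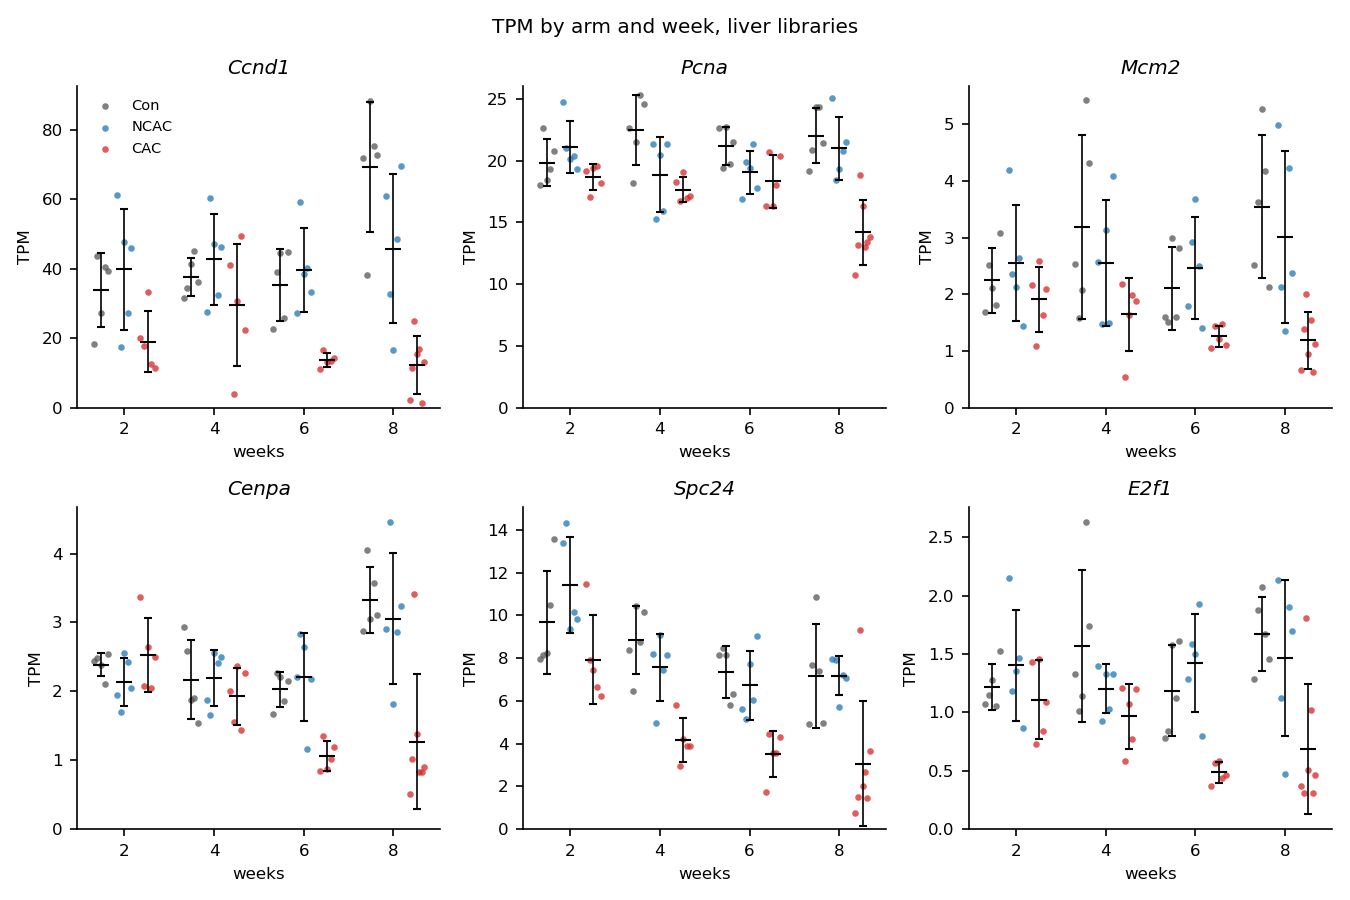
TPM of 6 members in every library by arm and week, with the mean and SD in black (n = 5, CAC at 8 weeks n = 7). CAC values of Ccnd1, Pcna and Mcm2 at 8 weeks all lie below Con, while for Cenpa, Spc24 and E2f1 1 CAC library, replicate 3, lies among the Con values.

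Deoxynucleotides for replication come from ribonucleotide reductase, whose subunits are encoded by Rrm1 and Rrm2, and from thymidylate synthase, encoded by Tyms. Tyms was at 2.16, 2.39, 2.41, 2.48 and 1.90 TPM in Con and from 0.914 through 1.52 to 2.57 in CAC, with 6 of 7 CAC values below all of Con and replicate 3 above it. It fell by 0.40 ± 0.09 (limma adjusted p = 0.00033). Rrm1 fell by 0.39 (limma adjusted p = 0.012), with 4.92 to 6.44 TPM in Con and 3.11 to 5.81 in CAC, and Rrm2, a subunit made mostly in dividing cells, by 0.45 (limma adjusted p = 0.0072), from 0.961 ± 0.414 to 0.475 ± 0.537 TPM. Rrm1 did not pass after median-of-ratios rescaling (-0.18), nor Rrm2 without the libraries of other tissue (-0.28, limma adjusted p = 0.16).

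E2f1, an activator of the genes of DNA synthesis, was at 1.28, 1.88, 2.07, 1.67 and 1.46 TPM in Con and from 0.306 through 0.465 to 1.81 in CAC. In CAC 6 libraries were below all of Con and replicate 3 was within the Con range. It fell by 0.71 ± 0.16 (limma adjusted p = 0.00038), and E2f8, a repressor of the family known to act in hepatocyte polyploidy, by 0.74 ± 0.25 (limma adjusted p = 0.016), from 1.57 ± 0.44 to 0.570 ± 0.457 TPM. Both passed after median-of-ratios rescaling, at -0.60 and -0.64, but E2f8 did not after quantile normalization (-0.54, limma adjusted p = 0.088) or with a replicate block (-0.63, limma adjusted p = 0.076). Foxm1, the activator of mitotic genes, stayed under 1 TPM in all libraries and was not tested.

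Among chromosome and kinetochore proteins the genes expressed above 1 TPM fell, while Mki67 did not pass and Top2a was too low to test. Cenpa encodes the histone H3 variant of centromeres. It was at 2.87, 4.05, 3.05, 3.58 and 3.11 TPM in Con and from 0.503 through 0.908 to 3.41 in CAC, and its difference of -1.01 ± 0.15 had the smallest p of the members (limma adjusted p = 9.86e-07). Spc24 and Spc25 encode partner subunits of the NDC80 complex, which attaches kinetochores to microtubules. Spc24 was at 4.90, 7.68, 10.9, 7.39 and 4.98 TPM in Con and from 0.748 through 2.01 to 9.33 in CAC (-1.20 ± 0.23, limma adjusted p = 4.74e-05). Spc25 was at 2.85, 3.46, 2.66, 2.75 and 3.18 TPM in Con and from 0.192 through 0.619 to 3.44 in CAC (-1.18 ± 0.23, limma adjusted p = 7.61e-05). For Cenpa, Spc24 and Spc25 the highest CAC value was replicate 3 and the other 6 lay below every Con value. Without it the differences were -1.19, -1.46 and -1.40.

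The proliferation marker Mki67 was at 0.443, 0.956, 0.943, 0.949 and 0.662 TPM in Con. In CAC it ran from 0.0751 through 0.286 to 2.71 TPM, the last in replicate 3, while the other 6 were at or under 0.344. Its difference was -0.31 (95% interval -0.69 to 0.07, limma adjusted p = 0.19) with all libraries and -0.54 (limma adjusted p = 0.0040) without replicate 3. With the libraries of other tissue left out as well it was -0.45 (limma adjusted p = 0.032). Top2a, the topoisomerase that untangles sister chromosomes, was at 0.332, 0.700, 0.573, 0.650 and 0.430 TPM in Con and from 0.0680 through 0.145 to 1.34 in CAC, again with 6 values below all of Con and replicate 3 above. At such levels a library holds few reads of a gene, and since TPM keep no depth their counting error is unknown.

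For the genes of mitotic entry and exit replicate 3 was again the highest CAC library. The other 6 all lay below every Con value only for Ccnb1, Bub1 and Cdc20, and for the rest they overlapped Con in part. Cdk1, the kinase of mitotic entry, was at 0.549, 1.97, 1.68, 1.47 and 0.810 TPM in Con and from 0.193 through 0.454 to 3.06 in CAC. Con and CAC overlapped, and the difference of -0.43 (95% interval -0.81 to -0.05) did not pass (limma adjusted p = 0.066). It passed with a pseudocount of 0.1 (-0.95, limma adjusted p = 0.032), with the 20 highest genes removed (-0.63, limma adjusted p = 0.020), without Con replicate 1 (-0.56) and without Con replicate 5 (-0.50), and was at -0.24 (limma adjusted p = 0.40) without the libraries of other tissue. Without replicate 3 it was -0.64 (limma adjusted p = 0.00097), and -0.46 (limma adjusted p = 0.035) with the libraries of other tissue left out as well. Ccna2, Ccnb1, Ccnb2, Birc5, Aurka, Plk1 and Ube2c also passed without replicate 3 alone, with differences from -0.35 to -0.92. Cdc20, the activator of the anaphase-promoting complex, passed with all libraries (-1.01 ± 0.37, limma adjusted p = 0.024). Its Con values spread from 0.478 to 5.64 TPM, highest in replicate 2, a library with pancreatic and muscle transcripts, and without the libraries of other tissue it was at -0.54 (limma adjusted p = 0.30). It also did not pass after median-of-ratios (-0.93) or quantile scaling (-0.85), with a fit within each week or with a replicate block (-0.80, limma adjusted p = 0.12). Leaving out Con replicate 2, 3 or 4, or CAC replicate 1 or 6, each lost its call too. Cdc20 also shares bases with Elovl1 on the opposite strand. Protein-coding genes on the opposite strand likewise overlap Ccnd1, Ccnd3, Cdk4, Ccne2, Ccna2, Mcm7 and Ube2c. The part of such overlaps in the results was not tested.

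Replicate 3 of CAC exceeded the median of the other 6 by 3.91 to 46.0 times for each of the 17 genes of cyclins A and B, CDK1, mitosis and the kinetochore, and its ratio to that median was 0.777 to 6.05 for the other 23 members, below 1 for 4 of them. Summed over 14 of the 17, leaving out the more abundant Cenpa, Spc24 and Spc25, these genes reached 38.5 TPM in replicate 3. The median CAC library had 3.42 TPM and Con libraries 4.62 to 21.2. Of the 17 erythroid genes 11 were above every other CAC and Con library of that week in replicate 3, among them all 4 globins and Alas2, the haem synthesis enzyme of red cell precursors (65.1 TPM against 9.76 to 18.6 in Con), and 2 were below all of Con, Epor at 0.533 TPM and Car1 at 3.76. The neutrophil list was also highest there, at 157.6 TPM against 59.6 to 126.6 in the other CAC libraries. Prtn3 made 71.8 TPM of this, which was its CAC median. Also highest there of the CAC libraries were the Kupffer cell and macrophage list (902.1 TPM against 228.7 to 558.8) and the T and NK cell list (8.11 against 1.29 to 2.93). Both lay within the range of Con, 688.2 to 1109 and 4.49 to 42.8 TPM. Germinal centre B cell (34.9 against 16.5 to 32.2) and pancreatic acinar genes (14.9 against 4.03 to 8.45) were also highest there among CAC. Con was at 18.0 to 28.9 and 18.3 to 7487 TPM, so the acinar sum of replicate 3 was below all of Con. The stellate cell and cholangiocyte lists were lowest in replicate 3 among the CAC libraries. The part of these cell types in the high values was not tested. Of the other libraries, NCAC replicate 2 at 8 weeks came closest in the sum of the 14 genes, with 28.9 TPM. Its erythroid genes had a mean log2(TPM + 1) of 2.95, against 4.19 in replicate 3 of CAC. The library next highest in that mean, CAC replicate 1 at 4 weeks (3.72), had a sum of 4.07 TPM.

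**Figure D3:**
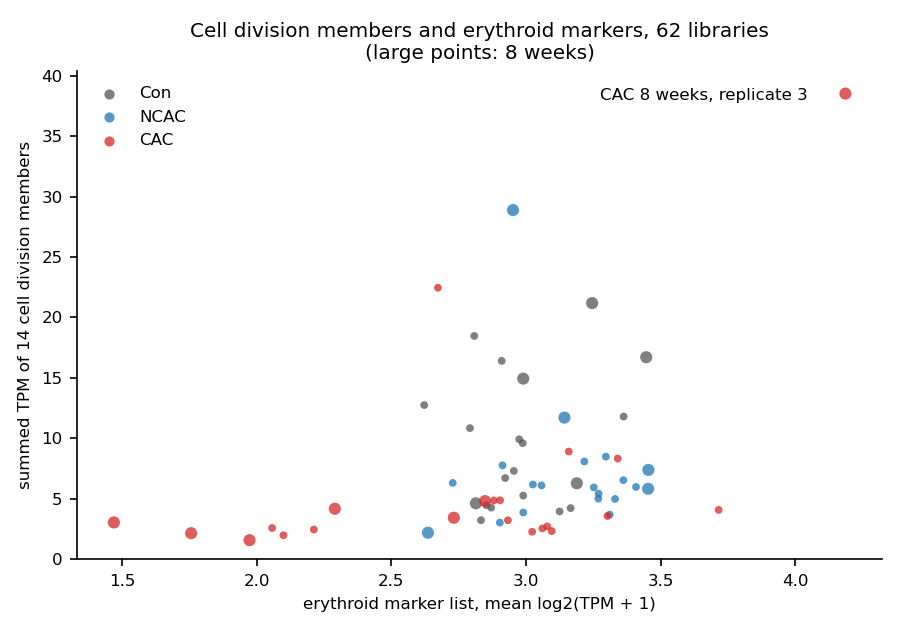
Summed TPM of 14 cell division members (vertical axis) and mean log2(TPM + 1) of 17 erythroid marker genes (horizontal axis) in each of the 62 libraries, coloured by arm, large points for 8 weeks. CAC replicate 3 at 8 weeks lies alone at the upper right, with 38.5 TPM and a marker mean of 4.19, and the 6 other CAC libraries of that week lie along the bottom. The next highest sum, 28.9 TPM in NCAC replicate 2 at 8 weeks, has a marker mean of 2.95. The next highest marker mean, 3.72 in CAC replicate 1 at 4 weeks, has a sum of 4.07 TPM.

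**Figure D4:**
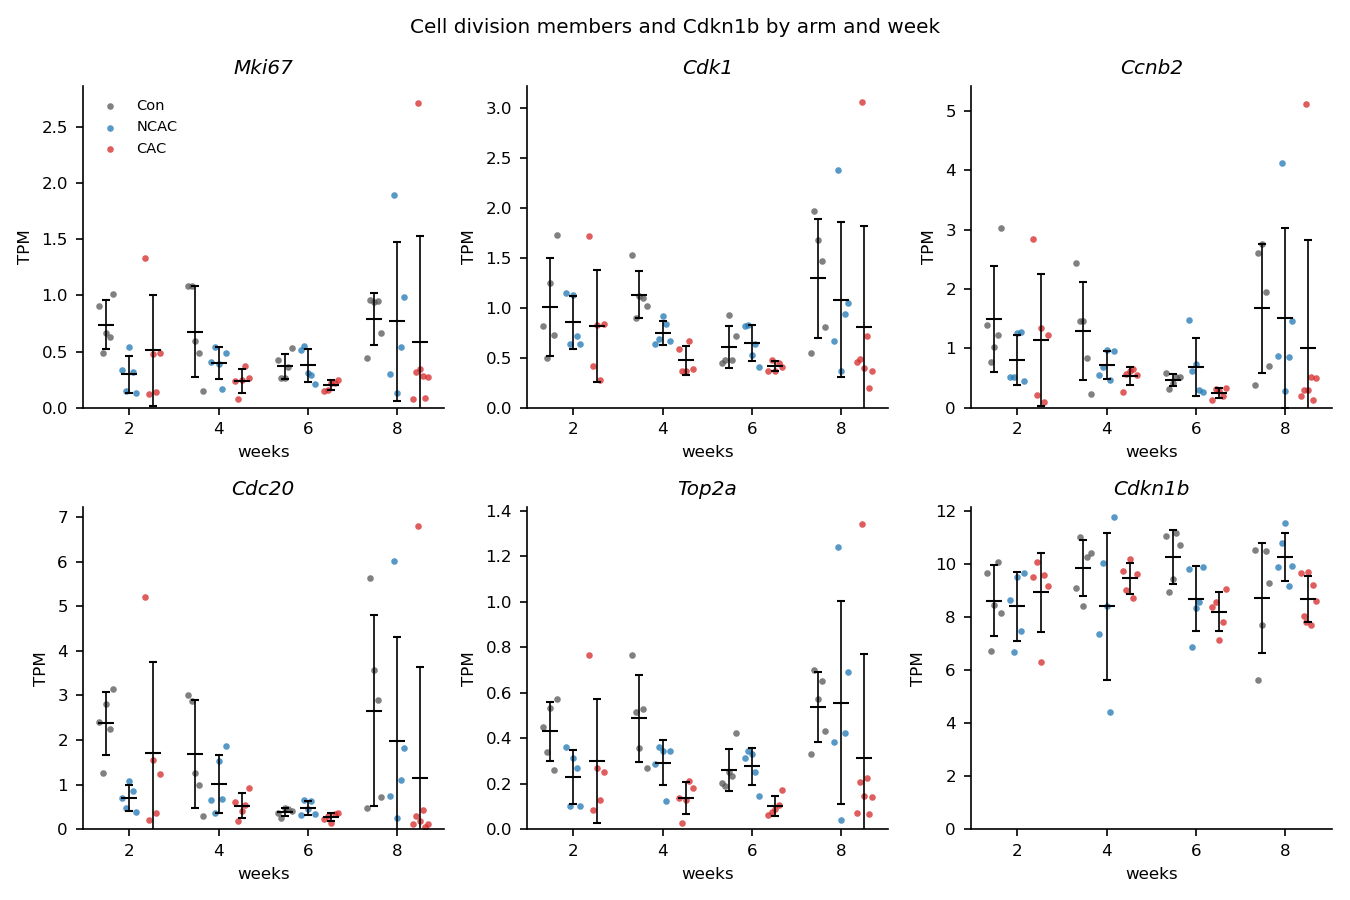
TPM of 5 cell division members and of Cdkn1b in every library by arm and week, with the mean and SD in black (n = 5, CAC at 8 weeks n = 7). Replicate 3 of CAC at 8 weeks is the single high red point for Mki67, Cdk1, Ccnb2, Cdc20 and Top2a, and the arms overlap for Cdkn1b.

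Neither CDK inhibitor of the set passed. Cdkn1b, which encodes p27 and restrains CDK2, was at 10.5, 5.62, 7.68, 10.5 and 9.30 TPM in Con and from 7.69 through 8.60 to 9.70 in CAC, entirely within the Con range. Its difference was 0.02 (95% interval -0.24 to 0.28, limma adjusted p = 0.92). Cdkn2c, an inhibitor of CDK4 and CDK6, was at -0.13 (limma adjusted p = 0.41), with 3.95 ± 0.58 TPM in Con and 3.53 ± 0.67 in CAC.

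Fewer members passed against Con at the earlier weeks. At 2 weeks 0 of 35 members passed, and 0 had an unadjusted limma p under 0.05, against 0.00822% of all tested genes called. At 4 weeks 3 were lower, against 0.609% of all genes. Spc24 was the 1 kinetochore gene to pass, at 8.40, 6.47, 10.4, 8.77 and 10.1 TPM in Con and 5.80, 2.97, 4.23, 3.90 and 3.87 in CAC, without overlap (-0.94 ± 0.25, limma adjusted p = 0.026). Rrm1 (-0.54, limma adjusted p = 0.020) and Mcm7 (-0.56, limma adjusted p = 0.026) were the others. These calls were fragile: leaving out Con replicate 4, Con replicate 5 or CAC replicate 2 left 0, and leaving out CAC replicate 3 left 1.

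At 6 weeks 5 members were lower, against 10.3% of all genes. Spc24 was at 8.14, 8.45, 8.15, 5.80 and 6.30 TPM in Con and 1.74, 4.45, 3.54, 3.57 and 4.33 in CAC (-0.91, limma adjusted p = 0.0084). Spc25 was at 1.86, 3.00, 2.35, 1.77 and 3.35 TPM in Con and 0.630, 0.830, 0.519, 0.787 and 1.58 in CAC (-0.89, limma adjusted p = 0.012), again without overlap. Cenpa (-0.56, limma adjusted p = 0.016), E2f1 (-0.54, limma adjusted p = 0.027) and Mcm5 (-1.02, limma adjusted p = 0.034) also passed. Mki67 and Cdk1 were at 0.198 ± 0.045 and 0.414 ± 0.049 TPM in CAC, against 0.369 ± 0.112 and 0.610 ± 0.211 in Con, and did not pass. Without the libraries of other tissue, 2 of Con and 1 of CAC at that week, 0 members passed (3.53% of all genes), and without these and the 8-week CAC replicate 3 the count was 3 (4.5%), with Spc24 at -0.90, Spc25 at -0.83 and Cenpa at -0.53. Leaving out CAC replicate 1 left 1 member, and leaving out Con replicate 3 or 5 left 3.

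The linear trend of CAC minus Con, given per step of 2 weeks, was downward for 6 members, against 12.3% of all genes. They were Ccnd1 (-0.63, limma adjusted p = 0.022), Spc25 (-0.45, limma adjusted p = 0.0028), Cenpa (-0.36, limma adjusted p = 0.00037), E2f1 (-0.21, limma adjusted p = 0.0499), Cdk2 (-0.19, limma adjusted p = 0.011) and Pcna (-0.15, limma adjusted p = 0.017). Without CAC replicate 3 at 8 weeks 12 members had a downward trend (18.3% of all genes), Mcm5 and Spc24 among them, and without the libraries of other tissue 3 had (5.07%). No member differed between 6 and 8 weeks in its CAC minus Con difference (limma, lowest adjusted p = 0.12, Mcm3 at -0.80), although 6 had an unadjusted p under 0.05, and 0% of all genes passed. Without replicate 3 Cdk4, Pcna, Mcm3 and Cenpa passed in that comparison (6.2% of all genes). In Con alone, 0 members differed between 2 and 8 weeks (0.296% of all genes), while 7 had an unadjusted limma p under 0.05, all higher at 8 weeks.

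Livers of mice with the melanoma line that does not cause cachexia showed no member past the test against Con. None of the 35 members passed at 2, 4, 6 or 8 weeks, against 0% of all genes at the first 3 weeks and 0.181% at 8. The numbers with an unadjusted limma p under 0.05 were 4, 2, 1 and 0. The trend of NCAC minus Con passed for 0 members and 0% of all genes, with 0 members at an unadjusted p under 0.05. Intervals were wide for some: Ccnd1 in NCAC against Con at 8 weeks was at -0.70 (95% interval -1.62 to 0.23) and Spc25 at -0.47 (95% interval -0.97 to 0.04), while Pcna was at -0.07 (95% interval -0.27 to 0.14).

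CAC also differed from NCAC directly. No member passed at 2 or 4 weeks (0% and 1.27% of all genes), where 2 and 5 had an unadjusted limma p under 0.05. At 6 weeks 7 were lower, against 5.54% of all genes: Spc25 (-1.09, limma adjusted p = 0.0016), E2f1 (-0.69), Cenpa (-0.62), Cdk2 (-0.45), Mcm5 (-1.11), Spc24 (-0.79) and Ccnd1 (-1.44, limma adjusted p = 0.029). Ccnd1 was then at 11.0, 16.7, 13.1, 13.3 and 14.2 TPM in CAC and 27.3, 59.3, 38.6, 40.1 and 33.2 in NCAC, without overlap. At 8 weeks 21 were lower, against 43.1% of all genes, with Spc24 at -1.24 (limma adjusted p = 2.38e-05), Cenpa at -0.89 (limma adjusted p = 7.83e-06) and Pcna at -0.55 (limma adjusted p = 8.84e-06). Without CAC replicate 3 this count was 30 (46.6%). Without the libraries of other tissue it was 8 of 35, a smaller share than the 28.4% of all genes. The comparisons with Con and with NCAC share the CAC libraries.

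How the members stood against all genes depended on the scaling. As deposited, the median of all tested genes at 8 weeks was -0.21 in CAC against Con. Median-of-ratios rescaling brought it to 0.00, and then 15 members were lower and 0 higher, against 13.9% of all genes lower, with a member median of -0.35. Relative to that shift Ccnd1 (-2.53), Mcm5 (-1.27), Spc25 (-1.06), Spc24 (-1.02), Mcm2 (-0.89), Cenpa (-0.87) and Pcna (-0.38) still passed. No member tested in CAC against Con at 8 weeks was called higher under any scaling tried. Against NCAC at 8 weeks the rescaled count was 10 lower, against 13% of all genes, and 1 higher, against 12.3%, the latter Ccne1 at 0.49.

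Markers of blood cells and macrophages also differed at 8 weeks, lower in CAC for most lists and higher for some neutrophil genes. Against the 35.3% of all genes called lower, 10 of 10 tested B and plasma cell genes were lower in CAC than in Con, and their summed level over 14 genes was 35.8 to 150.4 TPM in CAC and 144.6 to 2202 in Con. Of 10 tested erythroid genes 6 were lower. Of 13 Kupffer cell and macrophage genes 8 were lower, at a summed 228.7 to 902.1 TPM in CAC and 688.2 to 1109 in Con. All 3 tested T and NK cell genes were lower. Of 5 tested neutrophil genes 3 were higher, and the list summed to 59.6 to 157.6 TPM in CAC and 11.6 to 34.2 in Con. Prtn3 alone ran from 49.2 to 115.3 TPM in CAC and from 0.591 to 1.68 in Con. Median levels in CAC and Con were alike for S100a8 (4.81 and 4.39 TPM) and S100a9 (10.4 and 11.2). Retnlg (1.84 and 0.961) and Stfa2l1 (1.68 and 0.254) had higher medians in CAC. Con replicates 2 and 4, with pancreatic transcripts, held the highest B and T cell levels, and without the libraries of other tissue 6 of 10 B and plasma cell, 2 of 10 erythroid and 1 of 3 T and NK cell genes were lower, where 34.8% of all genes were. No gene of these 5 lists was at 0 in all libraries. The part of these cells in the members' differences was not tested.

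Other genes of the same pathways, from lists of genes outside the 40, are given by their counts. Of 30 tested fork genes 19 were lower and 2 higher in CAC at 8 weeks (35.3% and 5.87% of all genes), with a median of -0.32. Among them were the DNA polymerase subunits Pold2 (mean 17.0 TPM in Con and 8.29 in CAC, limma adjusted p = 2.7e-05) and Pola2 (-0.68) and the clamp loader subunits Rfc3 (-0.83) and Rfc4 (-0.71). Of 14 tested origin licensing genes 5 were lower and 1 higher, near the share of all genes, with Mcm10 (-1.58 ± 0.30, mean 10.7 and 3.44 TPM, limma adjusted p = 4.6e-05) the licensing factor Cdt1 (-0.88) and the helicase partners Gins4 (-0.47) and Cdc45 (-0.36) leading. Of 19 tested genes of nucleotide supply 8 were lower, including Samhd1 (-0.76), which degrades deoxynucleotides, the dUTPase gene Dut (-0.72) and the genes of purine and pyrimidine synthesis Atic (-0.44) and Umps (-0.65). After median-of-ratios rescaling the counts of fork genes were 10 lower and 3 higher, of origin genes 2 and 1, and of nucleotide genes 5 and 3. Of all genes 13.9% were then lower and 12.8% higher.

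Among the regulators the counts differed in direction by list. Of all genes 35.3% were lower and 5.87% higher, and the first 3 lists were near or below the former. Of 20 tested RB, E2F and DREAM genes 6 were lower and 0 higher, with the chromatin subunit Rbbp4 at -0.61, the repressor E2f6 at -0.54, the DREAM subunit Lin37 at -0.55 and Mxd4 at -0.57. Of 24 tested G2/M regulators 9 were lower, with the phosphatase inhibitor Arpp19 (-0.48) and the anaphase-promoting complex genes Fzr1 (-0.55), Anapc2 (-0.64) and Anapc11 (-0.51) among them, and of 14 tested spindle genes out of 52 listed 4 were lower, Smc2 (-0.41), Mad2l1 (-0.28), Pttg1 (-0.50) and Bub3 (-0.19). Without CAC replicate 3 the spindle count was 11 of 14 (39.9% of all genes lower), without the libraries of other tissue 2 (34.8%), and after median-of-ratios rescaling 0 (13.9%). Among 18 tested CDK inhibitors and growth arrest genes 5 were higher and 4 lower. The antiproliferative gene Btg2 was at 6.99 TPM in Con and 28.7 in CAC (1.94 ± 0.24), and Cdkn1a, which encodes the CDK inhibitor p21, at 2.28 and 18.9 (2.17 ± 0.60, limma adjusted p = 0.0034). Gadd45g, a stress-induced gene, rose by 3.12 ± 0.71 (limma adjusted p = 0.00043), and Gas6, a ligand of TAM receptors, by 1.23 ± 0.23, from 48.7 to 126.3 TPM, whereas Gas1 fell by 1.49 ± 0.25. Of 26 tested genes of growth factor signals to hepatocytes 6 were higher and 4 lower, with Hgf at 0.90, Il6st at 0.85, Wwtr1 at 0.45 and Tgfb1 at -0.72. Those counts were 11 higher and 1 lower after median-of-ratios rescaling (12.8% and 13.9% of all genes). Without the libraries of other tissue they were 2 higher and 7 lower (5.07% and 34.8%).

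**Figure D5:**
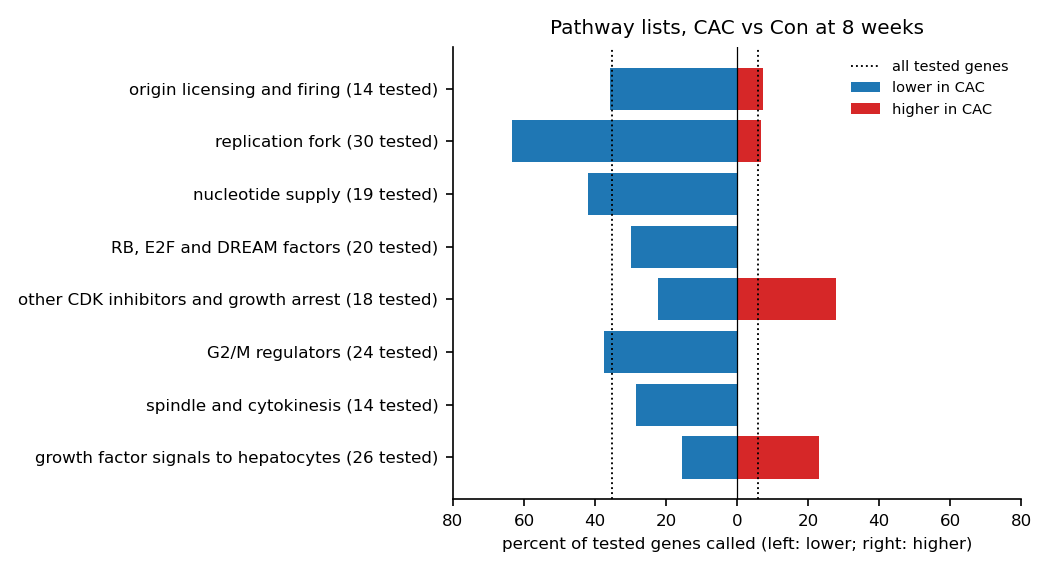
Percent of the tested genes of 8 pathway lists called lower (left, blue) or higher (right, red) in CAC than in Con at 8 weeks, with the percent of all tested genes, 35.3 lower and 5.87 higher, as dotted lines. The replication fork bar reaches farthest left, and the bars of CDK inhibitors and growth arrest and of growth factor signals are the longest on the right.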

How the data were processed

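Liver RNA was sequenced in 62 libraries made with stranded TruSeq mRNA kits on a NovaSeq instrument, per the labels' protocols, which also mention a lung carcinoma line that is in none of the groups. The authors deposited 1 table of TPM, in which each library sums to 1000000, and the build was mm10 per the submitters' processing notes. No source used here names the aligner, the quantifier or the depth, so counting intervals were not made. Columns were matched to groups by name (0 unmapped).

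Each gene's log2(TPM + 1) entered a linear model of the 12 group means in limma 3.58.1 (R 4.3.3), with variances moderated along a trend. Genes needed at least 1 TPM in at least 5 libraries (12160), and were called at a Benjamini-Hochberg adjusted p under 0.05 within each of 16 comparisons. Fold changes of low genes are understated on this scale. Tables and figures used Python 3.11.15, and the fit was tested on simulated data.

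The members and the 8 pathway and 14 cell type lists were chosen with earlier results of these data known. Members given library by library were the 12 with the smallest p in CAC against Con at 8 weeks among those called there or in the trend, plus Mki67, Top2a, Cdk1 and Cdkn1b whatever their result. From each pathway list the 4 called genes of smallest p were named. Cdkn1a and the blood cell genes named were chosen after their values were seen. Gene positions are from GENCODE M21. Alternatives covered pseudocount, filter, scaling, a fit within each week, a replicate block and leaving out libraries. Leaving out the 12 libraries with other tissue, alone or with CAC replicate 3 of 8 weeks, was chosen after seeing the data.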

Additional observations from a re-analysis of the deposited data

Results flagged for a closer look

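In CAC at 8 weeks replicate 3 was farther from its group than Dixon's 95% limit for 22 of the 40 members and for the sum of 14 division genes. The values, in TPM, were 2.84 for Ccna2, 2.33 for Ccnb1, 5.12 for Ccnb2, 3.06 for Cdk1, 2.21 for Mcm5, 4.08 for Mcm6, 2.71 for Mki67 and 1.34 for Top2a. They were 2.48 for Birc5, 2.24 for Aurka, 1.36 for Aurkb, 0.363 for Bub1, 0.793 for Bub1b, 2.72 for Plk1, 6.81 for Cdc20 and 4.36 for Ube2c. They were 3.41 for Cenpa, 9.33 for Spc24, 3.44 for Spc25, 1.66 for Rrm2, 2.57 for Tyms and 0.888 for Foxm1, and 38.5 for the sum. No other library of CAC or Con at 8 weeks passed that limit among the 82 sets of values examined. Chance alone flags about 1 in 20 independent sets. These sets come from the same libraries and are not independent, so the number of flags cannot be set against that rate.

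The difference between CAC and Con itself differed over the weeks for 6 members, by the test of its linear trend per 2 weeks, where 12.3% of all genes had a downward trend; without the libraries of other tissue it did for 3 members. The trend was -0.63 for Ccnd1, -0.19 for Cdk2, -0.15 for Pcna, -0.36 for Cenpa, -0.45 for Spc25 and -0.21 for E2f1.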

How the results depend on the processing

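Against Con at 8 weeks 21 members were called, all lower. This count moved by more than 1.5 times only with a filter at a mean of 5 TPM (7, of 8 tested) and quantile normalization (12). Of all genes 41.9% and 13.4% were lower with these settings. At 6 weeks, with 5 called, it was 2 with that filter (13.4% of all genes lower), 15 with the 20 highest genes removed (33.3%) and 9 with a fit within each week (18.2%). It was 0 without the libraries of other tissue (3.53%) and 3 without these and CAC replicate 3 of 8 weeks (4.5%). At 4 weeks, with 3 called, it was 5 with the 20 highest genes removed (2.03%) and 6 without both kinds of library (2.19%). Against NCAC it was 3 at 6 weeks and 7 at 8 with the 5 TPM filter (7.47% and 50.1%), and 4 and 8 without the libraries of other tissue (3.66% and 28.4%). At 8 weeks it was 11 with median-of-ratios and 8 with quantile scaling, 1 of each being higher. Of all genes 13% and 13.2% were then lower, and 12.3% and 14% higher. The trend had 3 members with the filter (18.5% of all genes downward), 14 with the 20 highest genes removed (27.8%) and 3 without the libraries of other tissue (5.07%). The 5 TPM filter tests fewer members; for the other settings the cause was not tested.

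Leaving out 1 library at a time gave 0 to 4 members at 4 weeks, 1 to 7 at 6 and 18 to 30 at 8 against Con, 4 to 7 at 6 weeks and 16 to 30 at 8 against NCAC, 4 to 12 for the trend and 0 to 4 for 8 against 6 weeks. The 30, 12 and 4 were all without CAC replicate 3. Over the tested members at 8 weeks, 743 pairs of a member and a setting gave 681 with the same call, 43 weaker, 19 stronger and 0 reversed.

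The labels do not say whether the replicate numbers pair animals across arms. Of 60 same-numbered pairs 10 had deviations correlated over 0.1 (range -0.368 to 0.364), and 13 correlated best with their own number. Such correlations cannot exclude a shared batch or order of handling. With the replicate number as a block, 3, 7 and 17 members were lower than in Con at 4, 6 and 8 weeks (0.609%, 10.2% and 29.5% of all genes). Against NCAC 7 and 18 were lower at 6 and 8 weeks (5.61% and 38.5%). The trend of CAC minus Con was downward for 4 (8.99%). Precision is limited for members near 1 TPM, since depth is unknown.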
